A study of Mus musculus with 6 samples.

Results

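The 10 genes described here are active in the somatic cells of the ovarian follicle, and were taken by symbol from a table of 53465 genes in M II stage oocytes of aged mice. They comprise 4 genes of cumulus matrix expansion (*Has2*, *Ptx3*, *Ptgs2* and *Tnfaip6*), 4 of follicle-stimulating hormone (FSH) reception and steroid synthesis (*Fshr*, *Star*, *Cyp11a1* and *Cyp19a1*) and 2 inhibin and activin subunits (*Inha* and *Inhba*). RNA was sequenced from 6 pools of oocytes of 9- to 10-month-old female Kunming (KM) mice, 3 control pools matured in vitro without quercetin and 3 pools matured with 10 μM quercetin, a plant flavonol. Each pool joined 15 oocytes of 3 mice. All pools share the strain, the age and hormone priming with pregnant mare serum gonadotropin, and cumulus cells had been stripped by pipetting before the culture. No cumulus or granulosa cells were sequenced beside the oocytes, so each value describes the pool and whatever cells came with it.

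In an antral follicle, granulosa cells answer FSH through its receptor and turn cholesterol products into oestradiol, and they release inhibin. The cumulus cells that enclose the oocyte respond to the ovulatory signal by making a hyaluronan matrix, which *Has2* synthesizes and *Tnfaip6* and *Ptx3* cross-link, while *Ptgs2* supplies prostaglandins. The oocyte itself is known for secreting *Gdf9* and *Bmp15*, which drive this response in its neighbours. Reads on these genes in denuded oocytes can therefore come from the oocyte or from cells left on it. In pooled RNA, fewer somatic cells and less RNA per cell cannot be told apart.

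Total counts ran from 7880467 to 9938743 reads per pool, and 3 reads, taken as the detection floor, correspond to between 0.302 and 0.381 CPM (reads per 1000000 reads of the library) before scaling. Floors cover counting error only, since amplified reads are not independent molecules. Oocyte markers were present, as 17 of 18 oocyte genes had at least 3 reads in every pool, led per exon length by *Dppa3* (9578 CPM per kb), *Oosp1* (6144 CPM per kb) and *Gdf9* (3064 CPM per kb). CPM of single genes use library sizes scaled by edgeR's trimmed mean of M-values (TMM), with factors from 0.920 to 1.06.

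*Cyp19a1* encodes aromatase, the enzyme that makes oestrogens, and is transcribed from several starts in different tissues. The deposited counts add up reads from all of them. The sequences shown are the 250 bases before each of the 3 starts that RefSeq lists on GRCm38.p6, because this gene carried most of the reads described here, and they run 5′ to 3′ on the minus strand of chromosome 9. Capitals mark the letters AGGTCA, or TGACCT on the other strand, the core that nuclear receptors such as NR5A1 and NR5A2 recognize. The windows lie at chr9:54193744-54193993 (the start nearest to the coding exons), chr9:54228915-54229164 and chr9:54268165-54268414 (the most distant start).

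Cyp19a1 nearest start: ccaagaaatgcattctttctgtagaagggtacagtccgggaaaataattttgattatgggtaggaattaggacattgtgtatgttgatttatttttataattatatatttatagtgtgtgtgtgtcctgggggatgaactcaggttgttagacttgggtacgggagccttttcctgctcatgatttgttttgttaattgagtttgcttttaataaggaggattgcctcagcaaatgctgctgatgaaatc

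Cyp19a1 middle start: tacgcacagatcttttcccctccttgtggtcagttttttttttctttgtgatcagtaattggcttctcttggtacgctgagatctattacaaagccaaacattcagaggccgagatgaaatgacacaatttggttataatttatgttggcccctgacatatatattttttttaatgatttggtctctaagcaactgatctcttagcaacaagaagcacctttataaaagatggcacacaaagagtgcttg

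Cyp19a1 distant start: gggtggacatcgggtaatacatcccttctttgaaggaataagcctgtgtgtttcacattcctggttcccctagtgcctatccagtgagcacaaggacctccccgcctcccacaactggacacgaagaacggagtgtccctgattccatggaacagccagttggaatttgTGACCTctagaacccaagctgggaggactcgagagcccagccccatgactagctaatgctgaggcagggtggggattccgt

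The motif was found once, in the distant window, with its first printed base 81 bases before the start. RefSeq windows were held for 8 of the 10 genes, 11 windows in all, and 4 of them had the motif on either strand, in *Cyp19a1*, *Cyp11a1*, *Inha* and *Tnfaip6*. Over all 32851 windows of this length, 14.0% had it. These matches describe letters in a window, and gene counts do not show which start was used.

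The 10 genes fell into 3 levels of detection. *Cyp19a1*, *Has2*, *Ptgs2* and *Fshr* had at least 3 reads in every pool, a level reached by 23.8% of all genes in the table. *Tnfaip6*, *Star*, *Cyp11a1*, *Inhba* and *Inha* had reads in some pools and fewer than 3 in others, and *Ptx3* had none in any pool. Of 4036 reads on the 10 genes over all pools, 89.0% (3593) lay on *Cyp19a1*, and the other 9 genes shared 443. With a floor of 10 reads per pool, *Cyp19a1* and *Has2* remained as the 2 genes detected throughout.

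**Figure D1:**
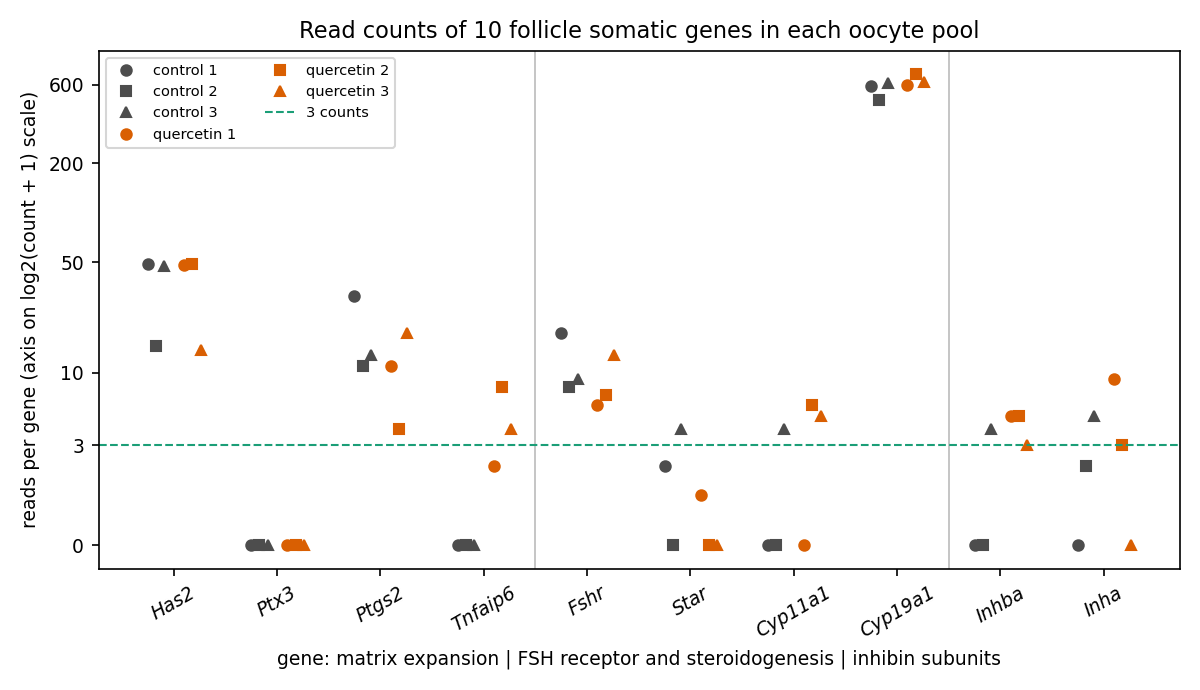
Reads per gene in each pool for the 10 genes, on a log2(count + 1) axis, with control pools in grey, quercetin pools in orange and the replicate number given by the marker shape. *Cyp19a1* lies between 486 and 692 reads in all 6 pools, *Has2* between 14 and 49, and the genes at the right and *Ptx3* lie around or under the line at 3 reads.

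*Cyp19a1* (ENSMUSG00000032274) lies on chromosome 9 from 54165937 to 54268110 of GRCm38, and no other annotated gene overlaps its exons. It had 584, 486 and 612 reads in the control pools and 598, 692 and 621 in the quercetin pools. All 6 pools were thus at a similar level, with control replicate 2 lowest. Per exon length its level was 15.3 CPM per kb over the 6 pools, above 89.3% of the 24437 genes with a read and a known exon length, and *Gdf9* was 200-fold higher on the same scale.

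The spread of *Cyp19a1* over the 6 pools, groups together, was a coefficient of variation (CV) of 9.59%, where reads alone would give 4.09%. Only 5.51% of the 11842 genes tested had a CV as low or lower, and the median was 23.1%. Since CV falls with the level of a gene, it was also set against its counting error. That ratio was 2.35 for *Cyp19a1*, close to the median of 2.30 over tested genes. The ratio also depends on level, being 0.768 for *Cd68* at a mean of 2.82 CPM and 38.4 for *Dppa3* at 8544 CPM. Neither measure therefore sets *Cyp19a1* against genes of its own level.

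**Figure D2:**
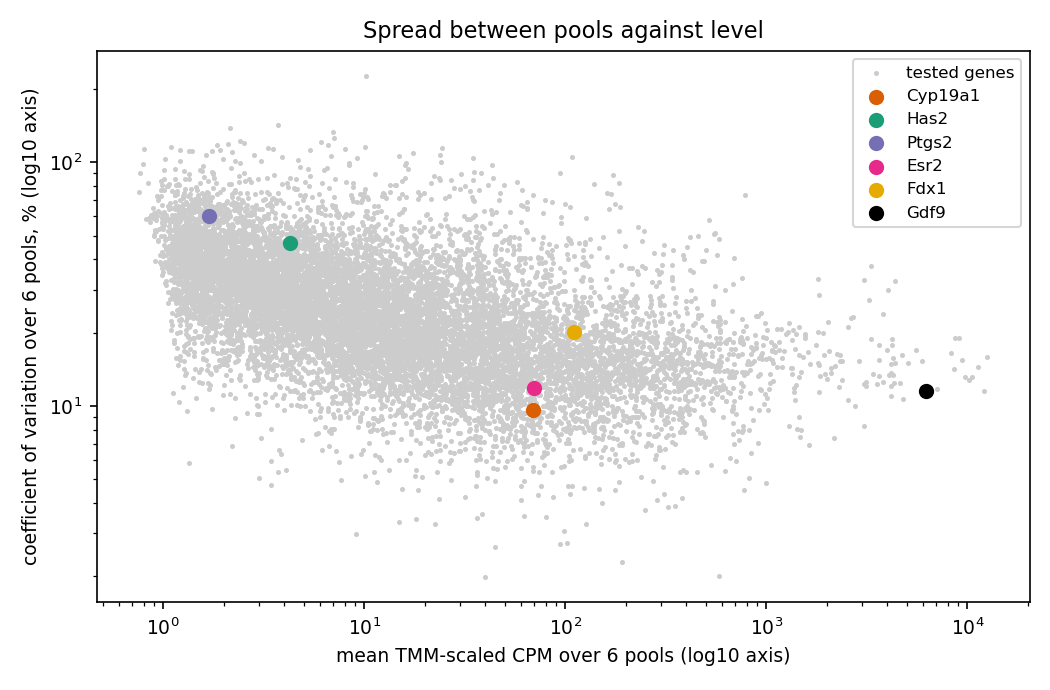
Coefficient of variation over the 6 pools, in percent, against mean TMM-scaled CPM, with both axes on a log10 scale and each grey point a tested gene. *Cyp19a1* (CV 9.59%) and *Esr2* (11.8%) lie in the lower part of the cloud, while *Has2* (46.6%) and *Ptgs2* (60.2%) lie higher and at lower levels. *Fdx1* and the oocyte gene *Gdf9* are marked for comparison.

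*Has2* (ENSMUSG00000022367, chromosome 15 from 56665627 to 56694539), the hyaluronan synthase of the cumulus matrix, had 49, 15 and 47 reads in the control pools and 48, 49 and 14 in the quercetin pools. In each group, 2 pools were thus close together and the remaining pool, control replicate 2 or quercetin replicate 3, was lower. Its CV was 46.6%, against 16.4% from counting alone. The same pair of pools had the highest scores on the first principal component of all tested genes (31.3 and 30.8, against -37.9 to 10.1 in the other pools) and the highest TMM factors (1.06 and 1.05), and the part of these in the *Has2* pattern was not tested. An antisense gene, *Has2os*, overlaps 4.30% of the *Has2* exon length, and the strand setting of the counts is not given in the sources used here.

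*Ptgs2* (ENSMUSG00000032487, chromosome 1 from 150100031 to 150108227), the inducible prostaglandin synthase, had 31, 11 and 13 reads in the control pools and 11, 4 and 18 in the quercetin pools. Control replicate 1 was highest and quercetin replicate 2 lowest, so the order did not follow the groups. *Fshr* (ENSMUSG00000032937, chromosome 17 from 88984952 to 89200675), the receptor through which FSH acts on granulosa cells, had 18, 8 and 9 reads in the control pools and 6, 7 and 13 in the quercetin pools. Control replicate 1 was again highest, and the groups overlapped. Per exon length, *Has2* reached 1.00, *Fshr* 0.496 and *Ptgs2* 0.370 CPM per kb, where *Cyp19a1* was 15.2-fold above *Has2*.

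The genes that carry cholesterol into steroid synthesis were near the floor. *Star*, which moves cholesterol into the mitochondrion (chromosome 8 from 25806555 to 25815982), had 2, 0 and 4 reads in the control pools and 1, 0 and 0 in the quercetin pools. *Cyp11a1*, which cuts the cholesterol side chain (chromosome 9 from 58006411 to 58027023), had 0, 0 and 4 reads in the control pools and 0, 6 and 5 in the quercetin pools. For each read on *Star* there were 513 on *Cyp19a1*, and for each read on *Cyp11a1* there were 240. Another annotated gene, *Gm17322*, overlaps 3.02% of the *Cyp11a1* exon length on the same strand.

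The subunits of inhibin and activin were also near the floor. *Inha* (chromosome 1 from 75507077 to 75510366), the α subunit of inhibin, had 0, 2 and 5 reads in the control pools and 9, 3 and 0 in the quercetin pools. *Inhba* (chromosome 13 from 16011851 to 16031621), the βA subunit shared by activin and inhibin, had 0, 0 and 4 reads in the control pools and 5, 5 and 3 in the quercetin pools. Neither gene had 3 reads in every pool, and the groups overlapped for both. Per exon length, *Cyp19a1* was 60.2-fold above *Inha*.

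Among the matrix cross-linkers, *Ptx3* (chromosome 3 from 66219910 to 66225805) had 0 of 51970856 reads over the 6 pools, which allows up to 0.0577 CPM. *Tnfaip6* (chromosome 2 from 52038009 to 52056686) had 0 reads in each control pool and 2, 8 and 4 in the quercetin pools. The quercetin pools therefore all lay above the controls, although quercetin replicate 1 lay under the floor. Its quercetin mean was 1.55-fold the level of 3 reads in each control pool, a ratio that leaves out the counting error of the quercetin reads. The exact permutation test, two-sided, gave p = 0.1, which is the lowest value for 3 pools against 3. A fit of edgeR without the filter on low counts gave *Tnfaip6* an unadjusted p of 0.0053 and an adjusted p of 0.834. In that fit, 780 of 24476 genes had an unadjusted p under 0.05. Other annotated genes share 2.80% of its 31-base words. That share was 3.33% for *Has2*, 3.21% for *Cyp11a1*, 0.962% for *Cyp19a1* and less for the other members.

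Ordered per exon length over the 6 pools, *Cyp19a1* came first, followed by *Has2*, *Fshr*, *Ptgs2*, *Inha* (0.254 CPM per kb), *Tnfaip6* (0.155), *Cyp11a1* (0.0587), *Inhba* (0.0514), *Star* (0.0323) and *Ptx3*. These levels stand above those of 42.0% of the same genes for *Inha* and 14.6% for *Star*. The gap after *Cyp19a1* was larger than the spread of either neighbour over the pools. From *Fshr* downward, each step to the next gene was smaller than the SD of the higher gene over the 6 pools. That SD describes single pools rather than means, and the order of these neighbours was not tested. The CV was 42.7% for *Fshr* and 60.2% for *Ptgs2*.

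To examine whether quercetin changed these genes, the groups were compared with edgeR's quasi-likelihood test on the 11842 genes with enough reads, adjusted over all of them by Benjamini-Hochberg. *Cyp19a1*, *Has2* and *Ptgs2* entered this test and the other 7 genes had too few reads. With a fold change over 2 and an adjusted p under 0.05 as the threshold, 0 of these 3 were called, as were 0% of all tested genes. At an unadjusted p under 0.05 the count was again 0 of 3, against 4.03% of all tested genes (477), and DESeq2, which gave *Ptgs2* no adjusted p, and edgeR's likelihood ratio test also called 0 of the 3.

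*Cyp19a1* had 64.1 ± 5.31 CPM in the control pools and 74.4 ± 1.42 CPM in the quercetin pools (SD, n = 3). The log2 fold change came to 0.22 with a standard error of 0.15, where the median of all tested genes was -0.03. The quercetin pools all lay above the control pools (exact permutation test, two-sided, p = 0.1), with library size alone as the scale too, where controls ran from 61.7 to 68.7 and quercetin pools from 69.6 to 76.6 CPM. The adjusted p of edgeR's test was 0.988. Of the 9 genes with any read, *Cyp19a1* and *Tnfaip6* were the 2 whose groups did not overlap (22.2%), against 7.80% of all genes with a read. Among the 18 oocyte genes, *Gdf9* alone had groups that did not overlap. It was also higher with quercetin, with a log2 fold change of 0.22 and a standard error of 0.14.

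*Has2* had 4.18 ± 2.07 CPM in the control pools and 4.33 ± 2.35 CPM in the quercetin pools (SD, n = 3). The log2 fold change of *Has2* was 0.05 with a standard error of 0.54 and an adjusted p of 0.999 by edgeR, and the sign turned with library size as the scale (-0.06) and without control replicate 2 (-0.31). *Ptgs2* had 2.08 ± 1.20 and 1.31 ± 0.839 CPM (SD, n = 3). For *Ptgs2* the log2 fold change was -0.68 with a standard error of 0.61 and an adjusted p of 0.988 by edgeR, and was -0.09 without control replicate 1. The groups overlapped for both genes (exact permutation test, two-sided, p = 0.9 for *Has2* and p = 0.5 for *Ptgs2*). *Fshr*, under the filter, had 1.33 ± 0.595 CPM in the control pools and 1.01 ± 0.443 CPM in the quercetin pools (SD, n = 3). These groups overlapped as well (exact permutation test, two-sided, p = 0.5). For the sparse genes the same exact permutation test gave p = 0.4 for *Star*, p = 0.4 for *Cyp11a1*, p = 0.2 for *Inhba* and p = 0.8 for *Inha*.

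**Figure D3:**
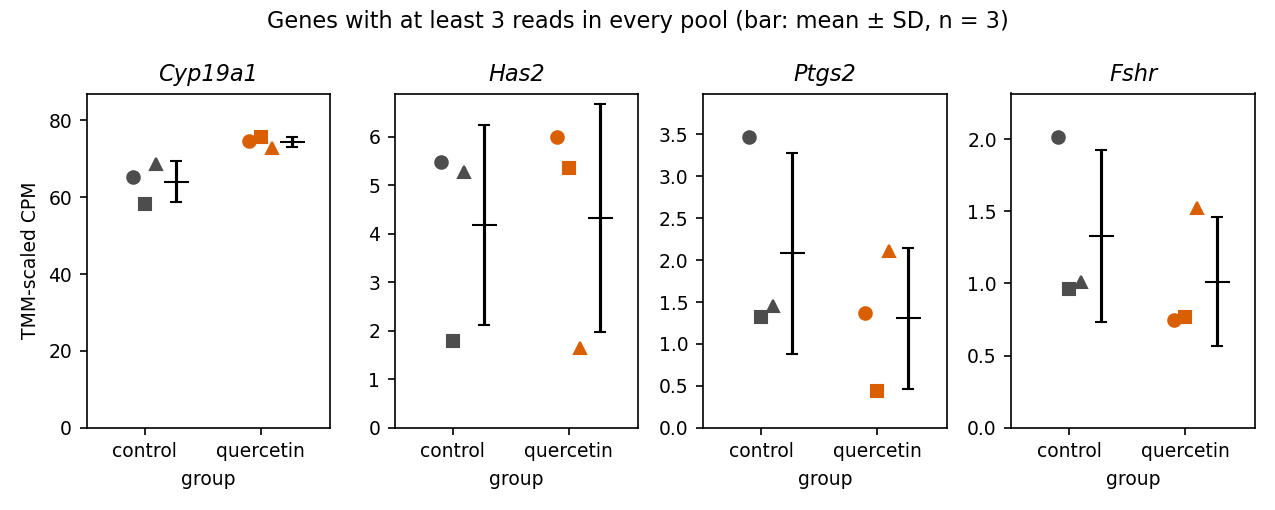
TMM-scaled CPM of the genes with at least 3 reads in every pool, by group, with replicates 1, 2 and 3 as circle, square and triangle and bars for the mean ± SD of 3 pools. The *Cyp19a1* pools do not overlap between groups (58.2 to 68.6 and 72.9 to 75.7 CPM), and those of *Has2*, *Ptgs2* and *Fshr* do.

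To set these levels beside other genes of granulosa cells, 23 further granulosa genes were read in the same pools. Of these, 10 had 0 reads in all 6 pools, which allows each up to 0.0577 CPM. Among them were *Foxl2* and *Nr5a1*, transcription factors that define granulosa and steroidogenic cells, *Amh* and its receptor *Amhr2*, *Fst*, which binds activin, *Inhbb*, the βB subunit, *Wt1*, and *Npr2* and *Slc38a3* of cumulus cells. *Lhcgr*, the receptor for luteinizing hormone, had 0 reads in each control pool and 2, 4 and 2 in the quercetin pools, and *Gja1*, the granulosa gap junction gene, had at most 5 reads in a pool.

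Other genes of the same list had levels like *Cyp19a1*. *Esr2*, the oestrogen receptor β of granulosa cells, had 642, 456 and 653 reads in the control pools and 632, 661 and 575 in the quercetin pools. *Fdx1*, which passes electrons to mitochondrial steroid enzymes, had 806, 797 and 1185 reads in the control pools and 1105, 1080 and 746 in the quercetin pools. Together with *Prlr*, the prolactin receptor, these 2 genes held 81.4% of the 14708 reads on the list. Per exon length, *Gata4* (3.33 CPM per kb) followed *Fdx1* and *Esr2*, just ahead of *Prlr* (3.29 CPM per kb). *Nr5a2*, the relative of *Nr5a1* that granulosa cells also use, had 146, 96 and 97 reads in the control pools and 98, 119 and 137 in the quercetin pools (2.26 CPM per kb). In all, 9 of the 23 genes had at least 3 reads in every pool.

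The reads on granulosa genes were thus uneven, with 10 of the 23 at 0 in every pool, among them *Foxl2*, *Amh*, *Nr5a1* and *Fst*, and others, among them *Esr2*, *Fdx1*, *Prlr*, *Gata4*, *Nr5a2* and *Kitl*, with reads in every pool beside *Cyp19a1*. Summed over the list, control pools had 229 to 321 CPM and quercetin pools 287 to 304 CPM. The cell that a read came from was not tested for any of the 10 genes, *Cyp19a1* included.

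**Figure D4:**
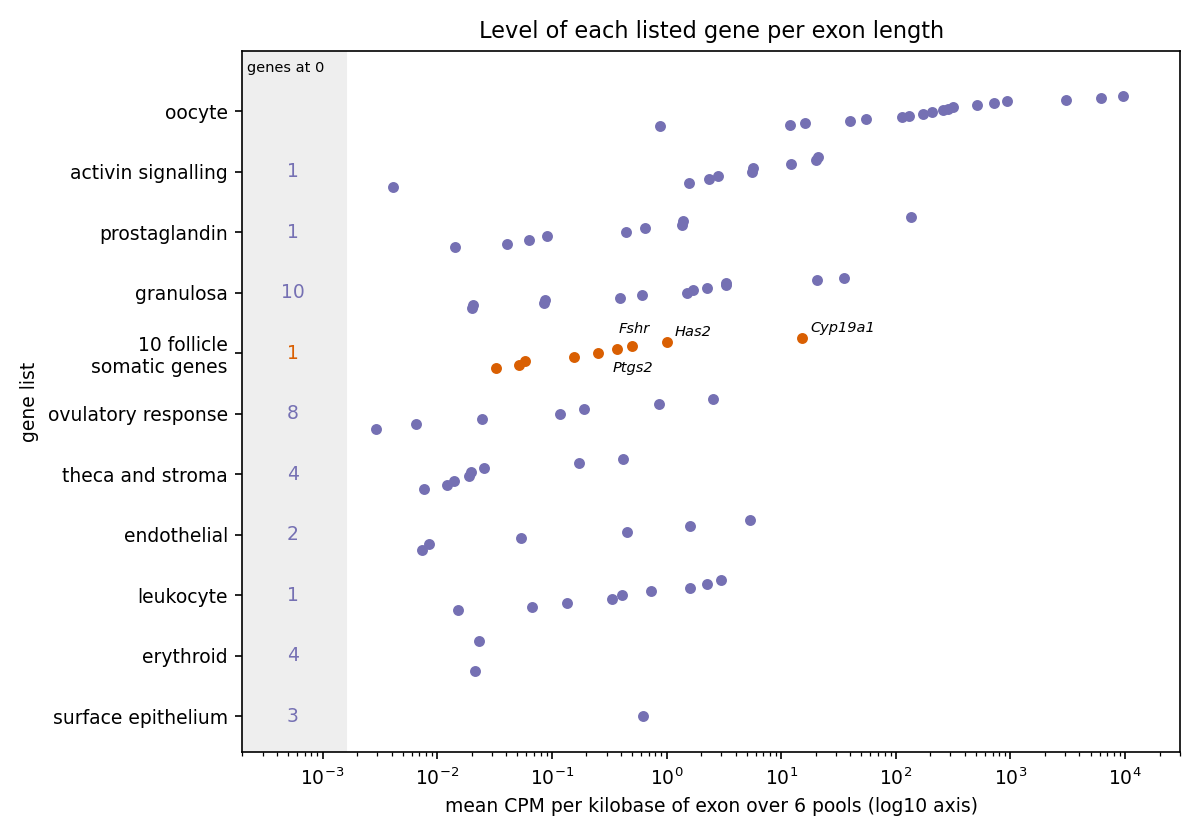
Mean CPM per kilobase of exon over 6 pools on a log10 axis, 1 point per gene, for each gene list, with the number of genes at 0 reads in all pools printed in the grey band. *Cyp19a1* lies at 15.3 CPM per kb among the activin signalling genes and the upper granulosa genes, while 10 granulosa and 8 ovulatory response genes lie at 0.

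In the granulosa list, 8 genes were tested and 0 were called, with a median log2 fold change of 0.10. At an unadjusted p under 0.05 there was 1 of the 8, against 4.03% of all tested genes. This was *Kitl*, the ligand through which granulosa cells act on the oocyte receptor KIT, with a log2 fold change of 0.59 (standard error 0.21). It had 7.94, 7.67 and 8.64 CPM in the control pools and 11.9, 12.2 and 12.4 CPM in the quercetin pools, so the groups did not overlap. With *Lhcgr* and *Hsd17b1*, it was 1 of 3 such genes among the 13 of the list with a read, against 7.80% of all genes with a read. *Hsd17b1* had 0 reads in each control pool and 2 in each quercetin pool, under the floor throughout. *Lhcgr* reached the floor of 3 reads in 1 pool. The adjusted p of *Kitl* by edgeR was 0.988.

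Genes of the ovulatory response gave the companions of the matrix genes. Of 15, 8 had 0 reads in all pools, including *Areg* and *Ereg*, the growth factors that relay the ovulatory signal, *Pgr*, the progesterone receptor, and *Vcan* and *Hapln1*, which bind hyaluronan. *Adamts1*, a protease that cuts versican, was also at 0, while *Adamts4*, a related protease, had 15, 48 and 34 reads in the control pools and 41, 34 and 40 in the quercetin pools. *Egfr*, the receptor for these growth factors, was the highest of the list at 2.57 CPM per kb, followed by *Adamts4* (0.858) and *Cebpb* (0.192). *Tmem189*, on the other strand, overlaps 20.7% of the *Cebpb* exon length. *Egfr* and *Adamts4* were tested and not called, with log2 fold changes of -0.33 (standard error 0.37) and 0.27 (standard error 0.42). *Il6*, a cytokine that cumulus cells release, had too few reads for the test, with 9, 3 and 3 in the control pools and 0 in each quercetin pool. It was the 1 gene of the 7 in the list with a read whose groups did not overlap (exact permutation test, two-sided, p = 0.1), against the same 7.80%.

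The prostaglandin genes beside *Ptgs2* were led by *Ptges3* (136 CPM per kb), a co-chaperone that also has prostaglandin E synthase activity, then the receptors *Ptger3* (1.39) and *Ptger4* (1.37). Of 4 tested, 0 were called. *Ptger4* had 13.3, 10.7 and 9.87 CPM in the control pools and 7.37, 7.98 and 5.63 CPM in the quercetin pools, and its log2 fold change was -0.69 with a standard error of 0.25. That gene had an unadjusted p under 0.05, the only such gene of the 4 tested, against 4.03% of all tested genes. Its adjusted p by edgeR was 0.988. Genes on the other strand overlap 16.5% of the *Ptger4* exon length. *Ptger2*, the receptor of cumulus cells, had 6, 7 and 3 reads in the control pools and 0, 1 and 0 in the quercetin pools. With *Ptges*, which had 4, 3 and 8 reads against 0, 2 and 2, these were the 3 genes, of 9 in the list with a read, whose groups did not overlap, against 7.80% of all genes with a read.

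Where *Inha* and *Inhba* were near the floor, the genes that receive activin had more reads. Of 10 activin signalling genes, 8 had at least 3 reads in every pool, led by the transducers *Smad3* and *Smad4* (20.0 CPM per kb for *Smad4*) and by *Tgfbr3* (12.2 CPM per kb), the co-receptor of inhibin. The type I receptor *Acvr1b* had 5.54 and the type II receptor *Acvr2a* 1.56 CPM per kb. All 8 were tested and 0 were called, with log2 fold changes from -0.19 to 0.35 and a median of 0.00. Of the 10 genes, *Smad2* alone had groups that did not overlap, against 7.80% of all genes with a read.

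The tested genes whose log2 CPM followed *Cyp19a1* most closely over the 6 pools were *Th*, which encodes tyrosine hydroxylase (Pearson r = 0.997), *Gk*, glycerol kinase (r = 0.996), and *Chek1*, a checkpoint kinase (r = 0.995). These are the highest of 11841 values over 6 points and are given as a description. *Th* had 315, 267 and 330 reads in the control pools and 319, 372 and 328 in the quercetin pools.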

How the data were processed

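M II oocyte pools were sequenced from Smart-seq HT libraries. The authors aligned reads to GRCm38.91 with Hisat2, while the submitters' processing notes list TopHat2 2.0.6 and CASAVA 1.8, and they deposited raw counts per Ensembl gene, without normalization or pooling. The counting program and its settings for strand and shared reads are not given in the sources used here. Symbols matched 53274 of 53465 genes, and exon lengths and coordinates came from GENCODE M21 on GRCm38.

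The members and gene lists were chosen with earlier results of these data known. From the counts, genes passing filterByExpr (minimum count 10) were compared, quercetin against control without covariates, by edgeR 4.0.16 (TMM, glmQLFit, glmQLFTest, R 4.3.3) with Benjamini-Hochberg adjustment over 11842 genes. Nothing states that pools of a group came from separate cultures, so p-values measure the spread between these pools. Single genes were also compared by exact permutation of log2 CPM (prior count 2, two-sided). All 10 members were named, with the 3 highest genes per exon length of each other list, any called gene and the 3 genes most correlated with the most abundant member. Other genes, such as those at 0, were named after their values were seen. The fit was tested on simulated counts. Alternatives were DESeq2 1.42.0, the likelihood ratio test, other scalings and filters, the replicate block and leaving out each pool. Shared words were the 31-base stretches of a transcript that another gene's transcripts also hold, and plots used matplotlib 3.10.9 in Python 3.11.15.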

Additional observations from a re-analysis of the deposited data

How the results depend on the processing

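None of the 10 genes was called under any alternative run (0 in each, from 2 to 9 of them fitted). Over all genes the count of 0 became 3 without a filter, 12 with DESeq2 and 16 with the likelihood ratio test, and the cause was not tested. Leaving out 1 pool at a time gave 0 to 7 calls (7 without quercetin replicate 1, 6 without quercetin replicate 3, 2 without control replicate 1 or control replicate 2, and 1 without quercetin replicate 2). Genes at an unadjusted p under 0.05 numbered 780 without a filter, where all 24476 genes with a read were fitted, in place of 477 of 11842. They numbered 1563 without quercetin replicate 3 and 241 without control replicate 2. With a floor of 10 counts, 2 genes were detected in every pool in place of 4. The log2 fold change of *Has2* turned to -0.058 by library size only and ran from -0.31 to 0.44 with a pool left out, and was -0.31 without control replicate 2, -0.25 without quercetin replicate 1 and -0.14 without quercetin replicate 2. It ran from 0.15 to 0.28 for *Cyp19a1* and from -1.22 to -0.09 for *Ptgs2*. With the replicate number as a block, 0 of the 10 genes and 0 of all genes were called, and log2 fold changes were 0.22 for *Cyp19a1*, 0.03 for *Has2* and -0.70 for *Ptgs2*. Deviations from the group means correlated by 0.296, 0.101 and -0.0303 between same-numbered pools, the first being the highest of all pairs. Control replicate 2 correlated best with quercetin replicate 3 (0.176). These values do not settle whether same-numbered pools were paired. No pairing is stated in the sources used here, so the main fit used no block. Depth limits genes under 3 reads, for which no change of moderate size could be seen.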

Other observations

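Markers of other ovarian cells were also uneven. Of 12 theca and stroma genes, 4 had 0 reads in all pools, including the collagens *Col1a1* and *Col1a2*, and the proteoglycan gene *Dcn* was highest at 0.418 CPM per kb, ahead of *Tagln* (0.174) and *Pdgfra* (0.0256). Genes on the other strand overlap 67.9% of the *Tagln* exon length, and which gene those reads came from was not tested. Of 8 endothelial genes, *Cdh5*, the junction cadherin, and *Cldn5* were at 0, while *Pecam1*, an adhesion receptor, had 299, 249 and 308 reads in the control pools and 262, 302 and 319 in the quercetin pools, a level of 5.38 CPM per kb. *Tek* (1.59) and *Kdr* (0.451) followed. In these lists, 0 of the 4 tested genes were called by edgeR's quasi-likelihood test, and 0 had an unadjusted p under 0.05. Groups did not overlap for *Egfl7* alone, against 7.80% of all genes with a read. It had 1, 0 and 0 reads in the control pools and 3 in each quercetin pool.

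The leukocyte list was led by *Cd74* (3.02 CPM per kb), *Cd68* (2.24) and *Csf1r* (1.61), while *Ptprc*, the pan-leukocyte phosphatase, had at most 5 reads in a pool and *Cd3e* had 0. *Hmgxb3*, on the other strand, overlaps 15.1% of the *Csf1r* exon length. All 4 globin genes had 0 reads in all pools, and *Alas2*, an enzyme of haem synthesis, had at most 2 in a pool. Of 4 surface epithelium genes, *Upk3b* (0.621 CPM per kb) had 30, 15 and 24 reads in the control pools and 16, 11 and 18 in the quercetin pools, and *Krt7*, *Krt19* and *Msln* had 0. The part of any of these cells in the pools was not tested. In these 3 lists, edgeR's quasi-likelihood test called 0 of 4 tested genes, and 0 had an unadjusted p under 0.05. Groups did not overlap for *Tyrobp* alone, against 7.80% of all genes with a read. It had 3, 4 and 3 reads in the control pools and 2, 0 and 2 in the quercetin pools. Of the 17 oocyte genes tested, 0 were called. At an unadjusted p under 0.05 there was 1 of the 17, against 4.03% of all tested genes. This was *Ooep*, a gene of the maternal subcortical complex, with a log2 fold change of -0.92 and an adjusted p of 0.988 by edgeR.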
